A study of Mus musculus with 24 samples.

Results

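The 9 long non-coding RNAs described here were chosen by name from the 53946 genes of the deposited table: Malat1, Neat1, Miat, Gas5, Snhg1, Snhg11, Tug1, Sox2ot and Rmst. By what is known of where they sit in a cell, Malat1, Neat1 and Miat were taken as nuclear-retained, Gas5 and Snhg1 as ribosome-associated, and the other 4 as mixed or less settled. The study profiled RNA from the mouse inner ear at embryonic day 14.5, in embryos of the labelled strain C57BL/6J x 129X1/SvJ. TRAP, translating ribosome affinity purification, pulls down tagged ribosomes with the RNA they carry, and the tag here was an L10a-eGFP ribosomal protein expressed in the Fgf20-Cre lineage. Pre-TRAP libraries are read here as RNA of the same tissue from before the pull-down, although both kinds carry the same extraction text. There were 8 TRAP mut libraries (Fgf20-/-), 8 TRAP het libraries (Fgf20+/-), 4 pre-TRAP mut libraries and 4 pre-TRAP het libraries, each group split evenly between experiment 2 and experiment 1. Tissue of 3 to 7 embryos that shared a genotype was pooled for each library. The controls themselves lack 1 working Fgf20 allele, no wild-type libraries were analysed here, and the tag reports on whatever cells the Fgf20-Cre lineage holds.

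Long non-coding RNAs do not code for a known conserved protein, and where each one resides decides whether ribosomes meet it. Malat1 gathers in nuclear speckles, where splicing factors are stored. Neat1 is the scaffold around which paraspeckles assemble, and Miat (also called Gomafu) forms its own nuclear foci in neural cells. Gas5 and Snhg1 instead carry small nucleolar RNAs (snoRNAs) in their introns, and their spliced exons reach the cytosol, where ribosomes begin on short open reading frames and the RNA is then removed by nonsense-mediated decay. Such host genes start with a 5′ terminal oligopyrimidine (TOP) tract, a run of C and T shared with mRNAs of the translation machinery.

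Libraries held 30745166 to 53374796 counts, and levels are given as CPM, counts scaled to a fixed library size with TMM factors. In a check of the labels, Fgf20 itself ran from 0.825 to 3.02 CPM in TRAP mut libraries and from 3.11 to 5.92 CPM in TRAP het libraries. It ran from 0.139 to 0.289 CPM in pre-TRAP mut and from 0.382 to 1.72 CPM in pre-TRAP het libraries. By reads, with no correction for transcript length, 4 of the 9 RNAs were abundant: Malat1, Gas5, Snhg1 and Tug1 had at least 47.0 CPM in every library, while Neat1, Miat, Snhg11, Sox2ot and Rmst stayed at or below 7.51 CPM. Such values and the ratios of 2 RNAs given later depend on transcript length, so a ratio is read only for its change between libraries and does not say which RNA had more molecules. The strand setting of the counting is not given in the sources used here. RefSeq places Gas5 across part of the protein-coding gene Zbtb37 and Sox2ot across Sox2, so reads shared with these partners cannot be told apart. Malat1 also contains Mascrna, the small RNA cut from its end, and Rmst contains the microRNA gene Mir1251.

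The first bases of the RNAs were looked up by symbol, since a TOP tract belongs there. Sequences came from RefSeq on build GRCm38.p6, which listed 7 starts for 6 of the 9 RNAs. The 5 printed here are the longest tract, its counterparts in the other ribosome-associated and nuclear RNAs, and the 2 RNAs other than Neat1 that fell in TRAP. Each runs 5′ to 3′ from 30 bases before the annotated start and covers 80 bases. Capitals mark the longest run of C and T that begins within 5 bases of the start, searched on the transcribed strand alone.
Snhg1, chr19:8723457-8723536, plus strand: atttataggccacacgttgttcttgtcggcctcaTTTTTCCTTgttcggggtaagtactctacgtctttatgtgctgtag
Gas5, start 2 of 2, chr1:161035136-161035215, plus strand: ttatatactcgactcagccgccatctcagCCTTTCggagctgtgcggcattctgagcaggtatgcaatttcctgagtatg
Miat, chr5:112228899-112228978, minus strand: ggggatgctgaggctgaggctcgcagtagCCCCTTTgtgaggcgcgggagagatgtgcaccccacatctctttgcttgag
Malat1, chr19:5802623-5802702, minus strand: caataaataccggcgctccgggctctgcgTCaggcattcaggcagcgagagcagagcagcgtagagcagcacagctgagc
Snhg11, chr2:158375683-158375762, plus strand: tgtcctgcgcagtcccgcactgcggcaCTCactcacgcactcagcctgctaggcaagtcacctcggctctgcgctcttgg

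Snhg1 had the longest run, 9 bases, a length that 3.95% of the 32851 starts in the table reached. Gas5 had a run of 6 bases at the start shown and of 3 at its other one, and 13.7% of all starts reached 6. Miat, taken as nuclear, had a run of 7, which 8.75% of starts reached. Malat1 had 2, and Snhg11 and Tug1 had 3, the median of all starts. A start with C followed by enough C and T to make at least 5 was found at 3 of 9 starts of TOP mRNAs and at 2.51% of all starts. Of the 7 starts of the RNAs it was found at 2, start 2 of Gas5 and the start of the nuclear Miat, and not at that of Snhg1, whose run begins further in. The annotated starts are therefore only near guides to the tract, and a missing run says only that these letters are not in this window.

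Malat1 RNA was far lower in TRAP than in pre-TRAP libraries, Neat1 was also lower, and Miat did not differ beyond its error. Malat1 (ENSMUSG00000092341, chromosome 19) fell by 4.43 ± 0.20 on the log2 scale (SE, 16 TRAP against 8 pre-TRAP libraries), a level 21.5-fold lower in TRAP, with an adjusted p of 4.45e-16 by the quasi-likelihood test of edgeR with Benjamini-Hochberg adjustment over 24242 genes. Its lowest, median and highest levels were 47.5, 80.5 and 172.9 CPM in TRAP mut libraries and 47.0, 78.5 and 198.1 CPM in TRAP het libraries. The pre-TRAP mut libraries had 1157, 1674, 1839 and 2066 CPM, and the pre-TRAP het libraries 1433, 2035, 2307 and 3888 CPM. The highest TRAP library thus lay below the lowest pre-TRAP library, and only 46 of the genes tested (0.19%) had a more negative change. In bulk libraries fewer cells of a type and less RNA per cell cannot be told apart, here and in every comparison that follows. Between TRAP and pre-TRAP libraries, less RNA on ribosomes and less RNA in the tagged lineage cannot be told apart either.

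Neat1 (ENSMUSG00000092274, chromosome 19) fell by 2.60 ± 0.27 on the log2 scale, 6.04-fold lower in TRAP, with an adjusted p of 5.12e-09 in the same test. In TRAP mut libraries the lowest, median and highest levels were 0.55, 0.906 and 1.97 CPM, and in TRAP het libraries 0.198, 0.782 and 1.70 CPM. Before the pull-down, pre-TRAP mut libraries had 3.02, 4.46, 5.64 and 7.51 CPM, and the pre-TRAP het libraries 4.12, 5.13, 5.33 and 5.94 CPM. These groups did not overlap either, although the TRAP values rest on 8 to 74 counts per library and the pre-TRAP values on 109 to 253. Every TRAP library was below every pre-TRAP library for these 2 of the 9 RNAs, as for 8.32% of all genes tested.

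Miat (ENSMUSG00000097767, chromosome 5) changed by -0.09 ± 0.16 on the log2 scale, with an adjusted p of 0.661 by edgeR. Its lowest, median and highest levels were 1.65, 2.26 and 3.01 CPM in TRAP mut libraries and 1.87, 2.08 and 3.28 CPM in TRAP het libraries. The pre-TRAP mut libraries had 2.05, 2.14, 2.40 and 2.85 CPM, and the pre-TRAP het libraries 1.81, 2.28, 2.60 and 3.43 CPM, so the ranges overlapped almost fully. The 10 neuronal marker genes summed to 2739 to 5039 CPM in TRAP and 509 to 807 CPM in pre-TRAP libraries. Celf3, a neuronal splicing regulator known to bind Miat, had 12.3 CPM on average in TRAP and 2.32 CPM in pre-TRAP libraries. Whether these differences reflect cell content, and whether they bear on the level of Miat, was not tested.

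**Figure D1:**
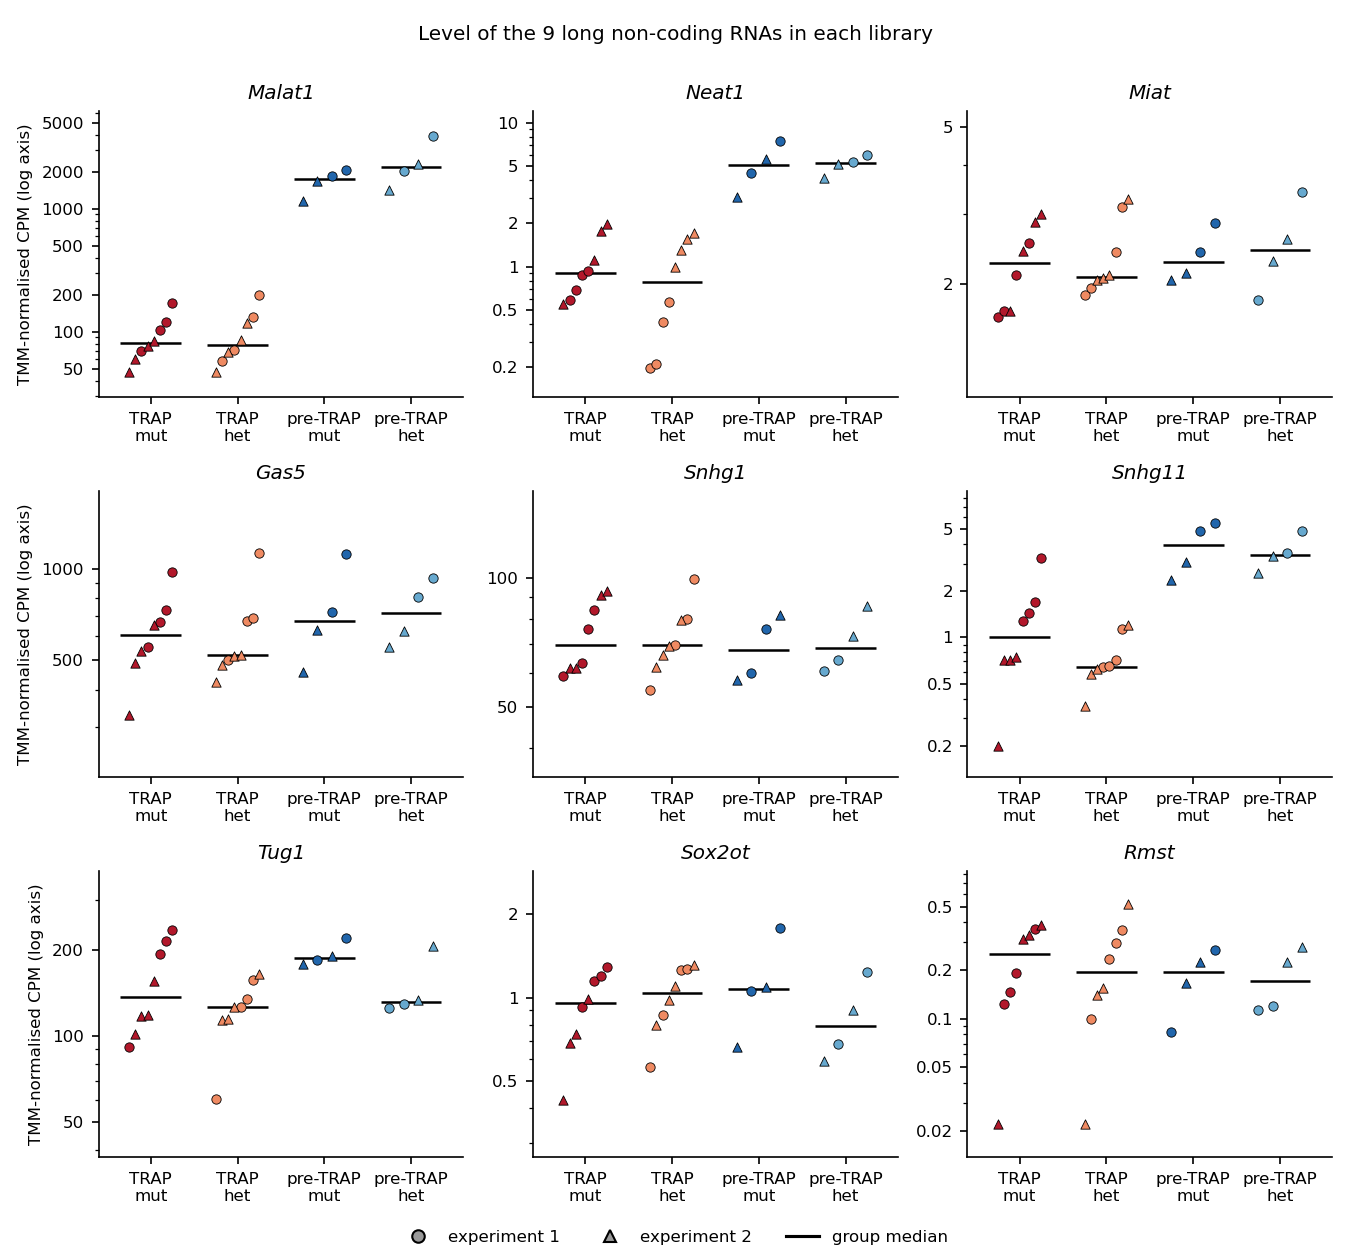
TMM-normalised CPM on log axes for each of the 9 RNAs in TRAP mut, TRAP het, pre-TRAP mut and pre-TRAP het libraries, with a point per library, circles for experiment 1, triangles for experiment 2 and a line at each group median. Malat1 lies between 47.0 and 198.1 CPM in TRAP and between 1157 and 3888 CPM in pre-TRAP libraries, while Snhg1, Gas5 and Miat cover like ranges in all 4 groups.

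Neither ribosome-associated RNA passed the threshold, an adjusted p under 0.05, between TRAP and pre-TRAP libraries. Gas5 (ENSMUSG00000053332, chromosome 1), known as a host of snoRNAs that builds up in growth-arrested cells, changed by -0.24 ± 0.13 on the log2 scale with an adjusted p of 0.128 by edgeR. Its lowest, median and highest levels were 328, 605 and 975 CPM in TRAP mut libraries and 423, 518 and 1131 CPM in TRAP het libraries. The pre-TRAP mut libraries had 458, 628, 720 and 1126 CPM, and the pre-TRAP het libraries 551, 622, 808 and 934 CPM, within the range of the TRAP libraries.

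Snhg1 (ENSMUSG00000108414, chromosome 19), host of 8 snoRNAs in RefSeq, changed by 0.07 ± 0.11 on the log2 scale with an adjusted p of 0.63 by edgeR. Its lowest, median and highest levels were 58.9, 69.5 and 93.1 CPM in TRAP mut libraries and 54.7, 69.6 and 99.4 CPM in TRAP het libraries. The pre-TRAP mut libraries had 57.8, 59.8, 75.7 and 81.7 CPM, and the pre-TRAP het libraries 60.6, 64.3, 72.9 and 85.8 CPM. The 4 groups of Snhg1 values covered nearly the same range.

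Among the 4 RNAs of mixed or less settled location, Snhg11 was lower in TRAP and the other 3 did not pass the threshold. Snhg11 (ENSMUSG00000044349, chromosome 2), a snoRNA host known from brain, fell by 2.0 ± 0.23 on the log2 scale, 4.00-fold lower in TRAP, with an adjusted p of 3.54e-08 by edgeR. Its lowest, median and highest levels were 0.20, 1.01 and 3.25 CPM in TRAP mut libraries and 0.361, 0.648 and 1.21 CPM in TRAP het libraries. The pre-TRAP mut libraries had 2.36, 3.06, 4.90 and 5.51 CPM, and the pre-TRAP het libraries 2.59, 3.36, 3.51 and 4.90 CPM. The groups overlapped through 1 library, TRAP mut library 13 of experiment 1, which at 3.25 CPM lay above 3 of the 8 pre-TRAP libraries. All 10 neuronal markers rose in TRAP, with a median log2 change of 2.64. Neurod1, a transcription factor of sensory neurons, had 112 CPM on average in TRAP and 13.3 CPM in pre-TRAP libraries. Whether the change of these markers bears on the level of Snhg11 was not tested.

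Tug1 (ENSMUSG00000056579, chromosome 11), found in both nucleus and cytosol and needed for retinal development and male fertility in mice, changed by -0.30 ± 0.16 on the log2 scale with an adjusted p of 0.121 by edgeR. The lowest, median and highest Tug1 levels were 91.6, 138 and 236 CPM in TRAP mut libraries and 60.5, 127 and 165 CPM in TRAP het libraries. Before the pull-down, pre-TRAP mut libraries had 180, 185, 192 and 220 CPM, and the pre-TRAP het libraries 125, 130, 134 and 208 CPM. Morc2a, a chromatin gene that neighbours Tug1, had 23.1 ± 3.56 CPM in TRAP and 22.6 ± 6.13 CPM in pre-TRAP libraries (SD, n = 16 and 8).

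Sox2ot (ENSMUSG00000105265, chromosome 3) overlaps Sox2, the gene of a transcription factor that marks the prosensory cells of the cochlea. It changed by -0.02 ± 0.20 on the log2 scale (adjusted p = 0.956, edgeR), with 0.427 to 1.31 CPM in TRAP and 0.592 to 1.78 CPM in pre-TRAP libraries. Sox2 had 49.4 ± 15.1 CPM in TRAP and 7.84 ± 3.67 CPM in pre-TRAP libraries (SD, n = 16 and 8), a rise of 2.70 ± 0.17 on the log2 scale with an adjusted p of 5.33e-13. The 2 overlapping genes therefore did not share their change: Sox2ot stayed within its range on 18 to 60 counts per library while Sox2 was 6.51-fold higher in TRAP.

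Rmst (ENSMUSG00000112117, chromosome 10), known as a partner of SOX2 in human neural progenitors, was near the limit of detection, with 1 to 17 counts per library. It had 0.0219 to 0.520 CPM in TRAP and 0.0826 to 0.282 CPM in pre-TRAP libraries and changed by 0.34 ± 0.42 on the log2 scale (adjusted p = 0.513, edgeR). At this depth a difference the size of that SE was not detectable.

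In total 3 of the 9 RNAs fell in TRAP and 0 rose, where 31.2% of all genes tested fell and 27.9% rose. An unadjusted p under 0.05 was found for 3 of the 9 and for 15199 of 24242 genes (62.7%), a larger share than among the 9. The DESeq2 Wald test and limma voom called the same number, 3 lower and 0 higher. By location, 2 of the 3 nuclear-retained RNAs, 0 of the 2 ribosome-associated RNAs and 1 of the 4 others fell. Without TRAP libraries 3, 4, 5 and 6, whose summed mesenchyme markers ran from 260 to 585 CPM against 84.0 to 193 CPM in the other 12 TRAP libraries, Gas5 and Tug1 also passed the threshold, at -0.30 and -0.34 on the log2 scale with edgeR adjusted p of 0.0476 and 0.0450. Tug1 also passed it in experiment 2 alone, at -0.43 with an adjusted p of 0.0384.

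The same contrast was read within each library as the ratio of a nuclear-retained to a ribosome-associated RNA, which no scaling of libraries can move. Malat1 over Gas5 had a median log2 ratio of -2.81 in TRAP mut and -2.57 in TRAP het libraries, against 1.2 in pre-TRAP mut and 1.63 in pre-TRAP het libraries. In a typical TRAP library the reads of Malat1 were thus 0.15 times those of Gas5, and in a typical pre-TRAP library 2.57 times. The 16 TRAP libraries ran from -3.53 to -1.95 and the 8 pre-TRAP libraries from 0.71 to 2.27, with no overlap. Malat1 over Snhg1 gave medians of 0.23 in TRAP and 4.92 in pre-TRAP libraries. Miat, the other nuclear-retained RNA, did not show the contrast: Miat over Gas5 had a median log2 ratio of -7.96 in TRAP and -8.04 in pre-TRAP libraries, and its range of -9.24 to -6.84 in TRAP held the whole pre-TRAP range of -9.01 to -7.73. Miat over Snhg1 overlapped as well, at medians of -5.07 in TRAP and -4.89 in pre-TRAP libraries.

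Neat1 over Gas5 had a median log2 ratio of -9.57 in TRAP and -7.24 in pre-TRAP libraries, again without overlap, and a wider spread in TRAP (SD 1.25) than in pre-TRAP libraries (SD 0.19). Snhg1 over Gas5, the pair of ribosome-associated RNAs, had medians of -3.05 in TRAP and -3.29 in pre-TRAP libraries, and the ranges overlapped. Tug1 over Gas5 likewise overlapped, at medians of -1.98 in TRAP and -1.92 in pre-TRAP libraries. The ratio of Sox2ot to Sox2 had medians of -5.60 in TRAP and -2.89 in pre-TRAP libraries and did not overlap.

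**Figure D2:**
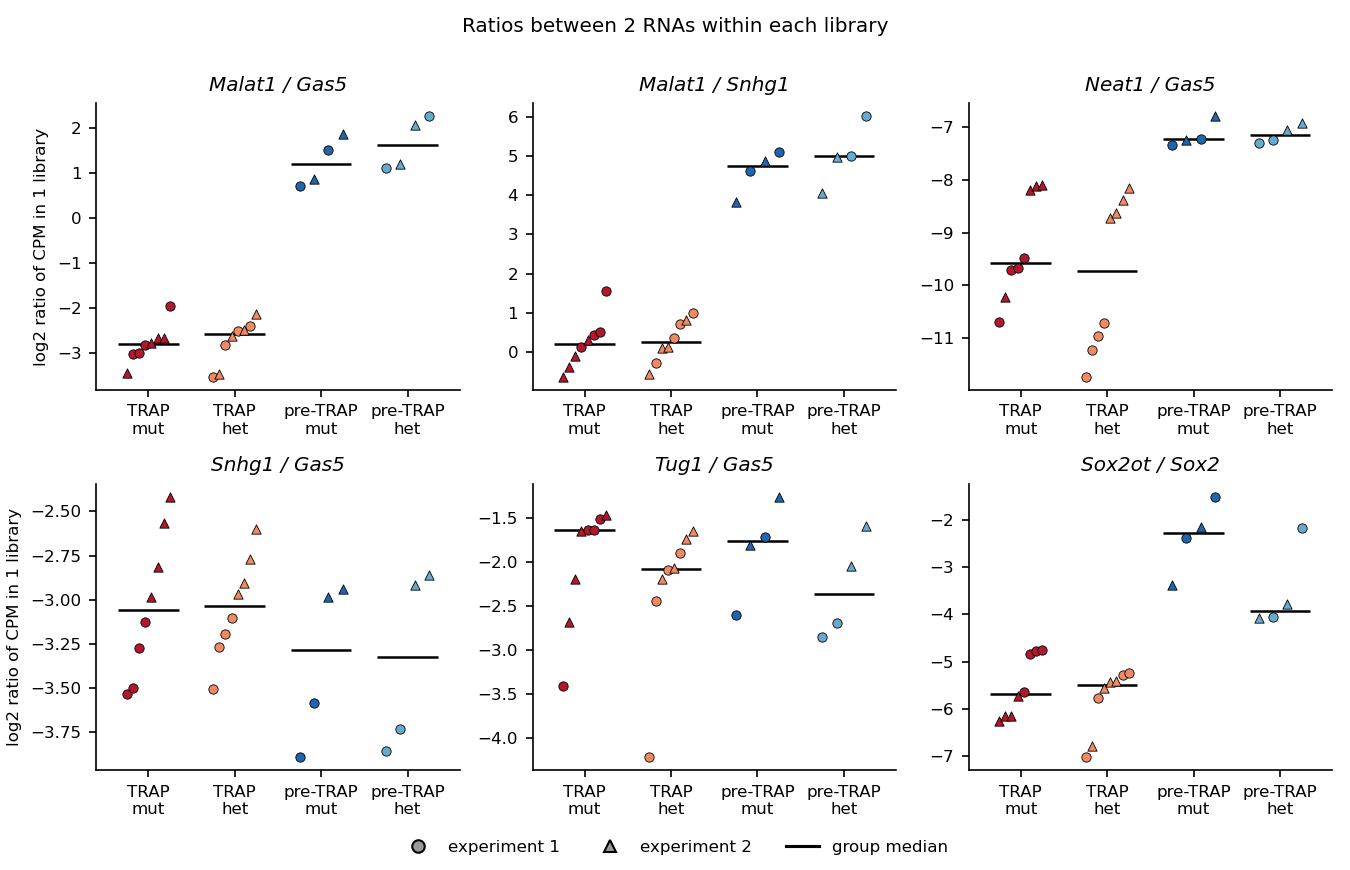
Log2 ratio of the CPM of 2 RNAs within each library, by group, with circles for experiment 1, triangles for experiment 2 and a line at each group median. Malat1 over Gas5 lies between -3.53 and -1.95 in TRAP and between 0.71 and 2.27 in pre-TRAP libraries, while Snhg1 over Gas5 and Tug1 over Gas5 overlap.

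Other genes of the same kinds placed these changes in context. Of 13 other nuclear long non-coding RNAs tested, 10 fell in TRAP, 2 rose and 1 was not called, with a median log2 change of -1.08, against -0.01 for all genes tested. Kcnq1ot1, which silences an imprinted cluster in cis, had 8.10 CPM on average in TRAP and 33.2 CPM in pre-TRAP libraries. Peg13, an imprinted RNA, went the other way, with 65.2 CPM in TRAP and 21.2 CPM in pre-TRAP libraries. Xist, of the same list, had 0 counts in pre-TRAP libraries 19 and 24 and 4 counts in TRAP library 9. The other pre-TRAP libraries had 252 to 537 counts of Xist, and no fit held a term for the sex of the embryos. Malat1 at -4.43 and Neat1 at -2.60 lay beyond the largest fall of this list, -2.04, and Miat at -0.09 lay above its median.

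Among 15 other snoRNA hosts 7 fell, 3 rose and 5 were not called, with a median of -0.24, the value of Gas5 itself. Snhg18 had 26.6 CPM in TRAP and 86.5 CPM in pre-TRAP libraries, Snhg10 had 10.2 CPM in TRAP and 5.74 CPM in pre-TRAP libraries, and Snhg15, nearest the median, changed by -0.24. Snhg11, at -2.0, fell by more than any gene of this list. Of 15 TOP mRNAs of the translation machinery 12 fell, 1 rose and 2 were not called, with a median of -0.46. Pabpc1, the poly(A)-binding protein, had 266 CPM in TRAP and 528 CPM in pre-TRAP libraries.

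Long non-coding RNAs described as cytosolic did not form a block: of 4 tested 3 fell and 1, Epb41l4aos, rose by 0.64. H19, an imprinted RNA abundant in embryonic mesenchyme, had 510 CPM in TRAP and 2644 CPM in pre-TRAP libraries, and 2900097C17Rik, the mouse Norad, changed by -0.73. Over the 1411 genes that RefSeq classes as long non-coding and that could be tested, 452 rose and 363 fell, with a median of 0.16. Malat1 had a more negative change than all but 4 of these, Neat1 than all but 81 and Snhg11 than all but 142. The mRNAs of speckle and paraspeckle proteins, the partners of Malat1 and Neat1, changed little: of 15, 4 rose, 1 fell and 10 were not called, with a median of 0.12, and Son, the speckle scaffold, was the 1 that fell, by 0.36.

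The markers of other cells moved with the method too. All 8 periotic mesenchyme markers fell (median -2.20), as did all 8 erythroid (median -3.28), 6 endothelial (median -2.24) and 5 macrophage markers (median -2.62), while 5 of 6 Schwann cell and glial markers fell and 1 rose. Summed mesenchyme markers ran from 84.0 to 585 CPM in TRAP and from 691 to 1128 CPM in pre-TRAP libraries, summed erythroid markers from 467 to 1625 CPM in TRAP and from 6940 to 16336 CPM in pre-TRAP libraries, and no marker was at 0 in either kind. The fall of Malat1 exceeded that of every one of these markers, whereas those of Neat1 and Snhg11 lay within their range. How far cells outside the tagged lineage account for the levels of the 9 RNAs before purification was not tested. The 13 mitochondrial mRNAs, which are read on ribosomes without the tagged protein, all fell, with a median of -5.79 and changes of -6.25 to -4.25, a range that includes the change of Malat1.

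**Figure D3:**
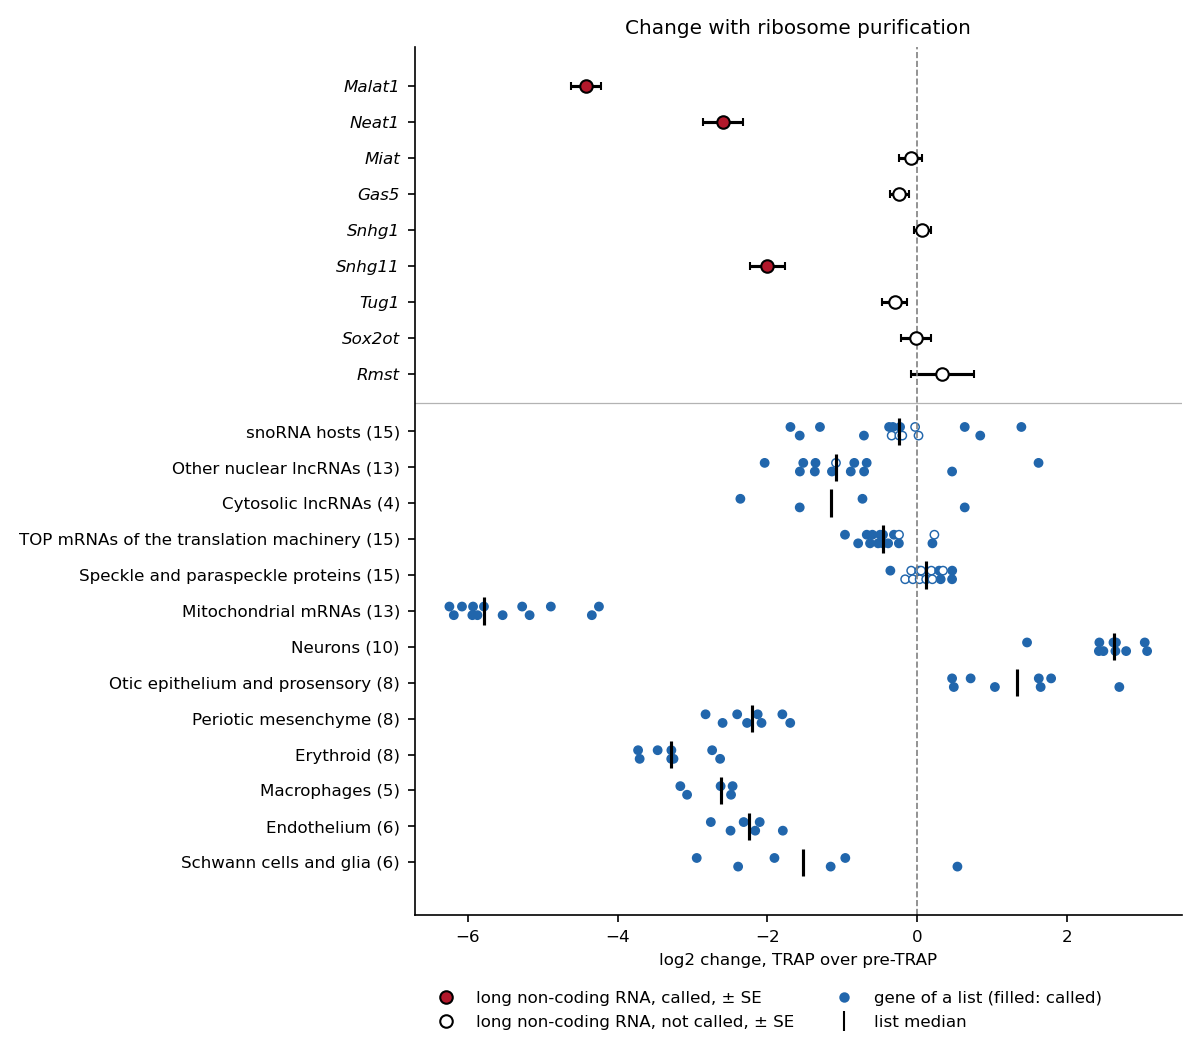
Log2 change of TRAP over pre-TRAP for the 9 RNAs (upper part, bars are 1 SE, filled where called) and for the genes of each comparison list (lower part, number tested in brackets, filled where called, line at the list median). Malat1 at -4.43 lies between the erythroid markers, median -3.28, and the mitochondrial mRNAs, median -5.79, while Gas5 and Snhg1 lie near 0.

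In each genotype taken alone the same 3 RNAs fell. In mut libraries the log2 changes were -4.23 for Malat1, -2.42 for Neat1 and -1.74 for Snhg11, with edgeR adjusted p of 5.14e-12, 7.32e-06 and 8.61e-05, where 24.1% of all genes fell. In het libraries the changes were -4.62 for Malat1, -2.78 for Neat1 and -2.25 for Snhg11, with adjusted p of 1.35e-12, 1.37e-06 and 3.93e-06, where 24.2% of all genes fell. The difference between the genotypes in this change was tested directly, and 0 of the 9 RNAs and 0.0% of all genes were called by edgeR, DESeq2 or limma voom, with 0 of the 9 and 302 of 24242 genes at an unadjusted p under 0.05. The differences for the 3 RNAs were 0.39 ± 0.40 for Malat1, 0.36 ± 0.54 for Neat1 and 0.51 ± 0.48 for Snhg11.

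The study set Fgf20-/- against Fgf20+/- embryos, and none of the 9 RNAs passed the threshold in that comparison. In TRAP libraries 0 of 9 were called by edgeR, where 16 of 21577 genes were (0.0742%), and 0 of 9 had an unadjusted p under 0.05, as had 813 genes (3.77%). DESeq2 and limma voom also called 0 of the 9. Snhg11 had the most positive difference, 0.55 ± 0.35 on the log2 scale, followed by Neat1 at 0.49 ± 0.31 and Tug1 at 0.26 ± 0.21, and the TRAP mut and TRAP het ranges given above overlapped for all 3. Malat1 differed by -0.13 ± 0.24, Gas5 by -0.01 ± 0.16 and Snhg1 by 0.00 ± 0.13.

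In pre-TRAP libraries 0 of the 8 RNAs tested were called, where 1 of 21954 genes was (0.00455%), and Rmst was left out by the filter on low counts. DESeq2 and limma voom called 0 of the 8 as well. Malat1 and Tug1 had an unadjusted p under 0.05, as had 1048 of the 21954 genes (4.77%). Malat1 was lower in pre-TRAP mut libraries by 0.50 ± 0.22 on the log2 scale, with an unadjusted p of 0.0364 and an adjusted p of 0.837, and 3 of the 4 pre-TRAP mut values lay within the pre-TRAP het range. Tug1 differed by 0.39 ± 0.17, with an unadjusted p of 0.0420 and the same adjusted p, and the 4 pre-TRAP mut libraries lay above every pre-TRAP het library other than library 23. Neither difference is a call, and replicate pools of 4 against 4 leave small differences beyond reach.

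**Figure D4:**
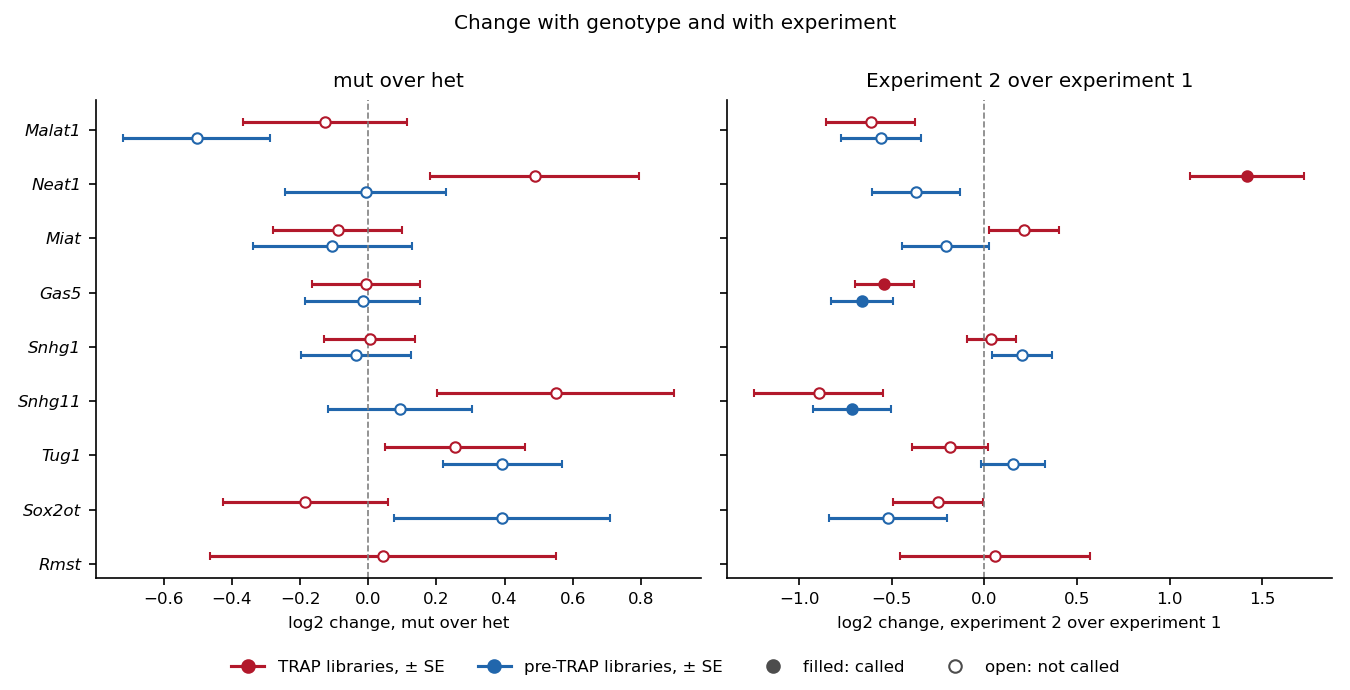
Log2 change of mut over het (left) and of experiment 2 over experiment 1 (right) for the 9 RNAs in TRAP and pre-TRAP libraries, with bars of 1 SE and filled points where called. No point is filled on the left, and on the right Neat1 in TRAP lies at 1.42, apart from every other RNA. Rmst was not tested in pre-TRAP libraries.

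The 2 experiments, which the labels give as batches, moved several of the RNAs more than genotype did. In TRAP libraries Neat1 was higher in experiment 2 than in experiment 1 by 1.42 ± 0.31 on the log2 scale, with an adjusted p of 0.00195 by edgeR. It averaged 1.37 ± 0.47 CPM in experiment 2 and 0.558 ± 0.276 CPM in experiment 1 (SD, n = 8 each). Gas5 was lower in experiment 2 by 0.54 ± 0.16, with an adjusted p of 0.0173. Thus 1 of the 9 RNAs was higher and 1 lower, where 14.1% of all genes were higher and 8.81% lower. Malat1 at -0.61 ± 0.24 and Snhg11 at -0.90 ± 0.35 fell short, with adjusted p of 0.0729 and 0.0695.

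In pre-TRAP libraries Gas5 was again lower in experiment 2, by 0.66 ± 0.17 with an adjusted p of 0.0191 by edgeR, and Snhg11 by 0.71 ± 0.21 with an adjusted p of 0.0388. The call of Gas5 was lost without library 17, 18 or 22, and that of Snhg11 without library 18, 19, 20, 22, 23 or 24. Gas5 had 458 to 628 CPM in the 4 pre-TRAP libraries of experiment 2 and 720 to 1126 CPM in the 4 of experiment 1. None of the 8 RNAs tested was higher, where 9.74% of all genes were higher and 4.97% lower. Scaling by library totals shifted the median log2 change of all genes to 0.18 in TRAP and 0.25 in pre-TRAP libraries and gave 4475 genes higher and 735 lower in TRAP, against 3051 and 1901 with TMM, and 3556 higher and 343 lower in pre-TRAP, against 2139 and 1092. Under it Gas5 was not called in either kind and Snhg11 not in pre-TRAP libraries. The log2 ratio of Snhg1 to Gas5 within a library, which no scaling moves, ran from -2.99 to -2.42 in experiment 2 and from -3.54 to -3.11 in experiment 1 in TRAP, and from -2.99 to -2.86 in experiment 2 and from -3.90 to -3.59 in experiment 1 in pre-TRAP libraries. The experiments did not overlap in this ratio in either kind, a split singled out after its values were seen, and Gas5 was lower relative to Snhg1 in experiment 2 on both sides of the pull-down.

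Whether the fall in TRAP differed between the experiments was tested as well. Malat1 changed by -4.42 on the log2 scale in experiment 2 and by -4.43 in experiment 1, each with its own fit. Snhg11 changed by -2.08 in experiment 2 and by -1.98 in experiment 1. Neat1 changed by -1.66 ± 0.29 in experiment 2, against -3.53 ± 0.26 in experiment 1. The difference for Neat1 was 1.74 ± 0.45 with an unadjusted p of 0.000630 and an edgeR adjusted p of 0.310, so it was not called. DESeq2 and a fit with no filter on low counts did call it, with adjusted p of 0.0245 and 0.0499. Of the 9 RNAs 0 were called by edgeR, where 9 of 24242 genes were (0.0371%), and Neat1 alone of the 9 had an unadjusted p under 0.05, as had 1107 genes (4.57%). In the smaller question of whether the genotype difference in TRAP changed with the experiment, 0 of the 9 and 0.0% of genes were called by edgeR, DESeq2 or limma voom, with 2 of the 9 and 455 of 21577 genes at an unadjusted p under 0.05. These were Snhg11 at -1.47 ± 0.62 and Neat1 at -1.19 ± 0.57.

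In TRAP libraries of experiment 1 the mut and het ranges of Neat1 and of Snhg11 did not overlap, and in experiment 2 they did. How many of all genes tested did the same was not counted. In experiment 2 Neat1 had 0.550 to 1.97 CPM in mut and 0.999 to 1.70 CPM in het libraries, and in experiment 1 it had 0.591 to 0.933 CPM in mut and 0.198 to 0.565 CPM in het libraries. Snhg11 had 0.20 to 0.745 CPM in mut and 0.361 to 1.21 CPM in het libraries of experiment 2, and 1.28 to 3.25 CPM in mut and 0.644 to 1.13 CPM in het libraries of experiment 1. Fitted within each experiment, mut over het was -0.046 ± 0.38 in experiment 2 and 1.18 ± 0.43 in experiment 1 for Neat1, and -0.22 ± 0.49 in experiment 2 and 1.28 ± 0.36 in experiment 1 for Snhg11, on the log2 scale. None of these was called by edgeR, with an adjusted p of 0.925 for both RNAs in experiment 1. The experiment 1 values of Neat1 rest on 16 to 34 counts per mut library and 8 to 19 per het library. These splits were singled out after their values were seen, and the test of the difference between the experiments is the one above, with an adjusted p of 0.970 for both.

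Finally, the RNAs were compared with all other named genes of at least 2 CPM on average by the Pearson correlation of log2(CPM + 0.5) over the 24 libraries, after the mean of each group in each experiment was taken off. The libraries share depth, scaling and dissection, and the values are descriptions. The genes most like Snhg1 were Rpl39-ps (r = 0.96), Rpl39 (r = 0.96) and Rps25 (r = 0.95), where Rpl39-ps is a pseudogene whose reads may be split with Rpl39 and both real genes encode ribosomal proteins with TOP tracts. Gas5 was most like Cops9 (r = 0.92), Tbca (r = 0.89) and Commd1 (r = 0.89). Tug1 was most like Tmem170b (r = 0.93), Igf2bp1 (r = 0.93) and Klhl15 (r = 0.93), and Malat1 like Plxdc2 (r = 0.91), Utrn (r = 0.89) and Cspp1 (r = 0.89). Neat1 was most like Rn7sk (r = 0.78), the nuclear 7SK RNA, followed by Ptgis (r = 0.76) and Nupr1 (r = 0.70).

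Among the 9 themselves, Gas5 and Snhg1 varied together most closely (r = 0.86 over 24 libraries), and both varied against Tug1 (r = -0.57 for Gas5 and r = -0.56 for Snhg1). Malat1 and Neat1 are neighbours on chromosome 19, and neither had the other among its 3 most like genes.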

How the data were processed

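RNA sequencing of 24 libraries was analysed: 8 TRAP mut, 8 TRAP het, 4 pre-TRAP mut and 4 pre-TRAP het. The authors deposited raw read counts for 53946 Ensembl genes, not normalised. STAR, DESeq2 and build GRCm38.p5 are named in the submitters' processing notes. Versions, the counting tool, annotation, strand setting and filters were not given in the sources used here. RNA was labelled polyA, purified with a Picopure kit and made into libraries with a SMARTer kit, per the labels' protocols. No label says whether pools of 1 group are independent beyond being separate samples, so p-values measure the spread between these pools. Whether a pre-TRAP and a TRAP library came from 1 pool is not labelled, and the fits treat all 24 libraries as independent.

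Fits used edgeR 4.0.16 (quasi-likelihood F test) in R 4.3.3, with TMM scaling, filterByExpr at a minimum count of 10 and a term for experiment. Genes passed at an adjusted p (Benjamini-Hochberg, all genes tested) under 0.05. SE is the size of the log2 change divided by the square root of F. Correlations used log2 CPM with a pseudocount of 0.5. DESeq2 1.42.0, limma 3.58.1 (voom), other scalings, no filter, no term for experiment, each experiment alone, no mitochondrial genes and left-out libraries were alternatives. The fits were also run on simulated counts with a shared mean profile, a fixed dispersion, few changed genes and no experiment effect. In the real TRAP against pre-TRAP comparison 59.1% of genes were called. That run therefore does not show how the fits behave on data like these.

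The 9 RNAs, the lists and the alternatives were chosen with earlier results of these data known. All 9 are named. From each list, the rule named the largest rise and fall among genes that passed, with a mean of 2 CPM or more and 1 sign across the experiments, and the gene nearest the median, and the report prints some of these. Morc2a and Celf3 were named outside that rule, after their values were seen. A likeness list of 3 genes was made per RNA. Symbols (53274 of 53946 genes) were matched by Ensembl identifier. Classes (37603 genes) and starts came from RefSeq on GRCm38.p6. The snoRNA host list matched 15 of 17 symbols and the cytosolic list 4 of 5, and all other lists matched in full.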

Additional observations from a re-analysis of the deposited data

Results flagged for a closer look

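Of 36 groups of values examined for the 9 RNAs (each RNA in each group of libraries), 2 held a library far from the rest, and chance alone would mark about 1 in 20. Gas5 reached 1131 CPM in TRAP het library 5 of experiment 1, and the next highest TRAP het library had 687 CPM. Tug1 in the same library was the lowest of the TRAP het group, at 60.5 CPM. Tug1 reached 208 CPM in pre-TRAP het library 23 of experiment 2, against 134 CPM in the next highest pre-TRAP het library, and the other 3 pre-TRAP het libraries lay below all 4 pre-TRAP mut libraries.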

How the results depend on the processing

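The falls of Malat1, Neat1 and Snhg11 in TRAP kept their direction and their call in all 34 alternatives, from -4.67 to -4.29, from -3.53 to -1.66 and from -2.14 to -1.92 on the log2 scale. Neat1 moved most, between the experiments taken alone. The cause of the shifts below was not tested. Without TRAP libraries 3, 4, 5 and 6, 5 of the 9 RNAs were called instead of 3. Signs of RNAs that were not called turned in several settings: Miat over pre-TRAP to 0.17 in experiment 2 alone (left-out libraries -0.14 to 0.062), and Sox2ot to 0.043 with library totals, 0.15 in experiment 2 alone and 0.045 without those 4 libraries (left-out libraries -0.090 to 0.094). For mut against het in TRAP, Malat1 turned to 0.039 in experiment 1 alone and 0.027 without the 4 libraries (left-out libraries -0.24 to 0.037), and in experiment 2 alone Neat1 turned to -0.046, Snhg11 to -0.22 and Tug1 to -0.076.

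Genes called in TRAP against pre-TRAP in mut numbered 7264 in experiment 2 alone and 5743 in experiment 1 alone, against 11135 with both, and in het 5828 in experiment 2 alone and 6172 in experiment 1 alone, against 10598, with fewer libraries in each. For mut against het in TRAP, 16 calls became 7 with library totals (3 higher and 4 lower, against 4 and 12), 27 with no filter, 53 with DESeq2, 4 with no covariate and 2 in either experiment alone (left-out libraries 6 to 16). In pre-TRAP, 1 call became 2 with DESeq2 and 0 with no covariate or in experiment 2 alone (left-out libraries 1 to 2).

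Of the 9 RNAs, experiment 2 against experiment 1 in TRAP called 1 with library totals, and 4 with no filter or DESeq2, against 2 (left-out libraries 2 to 4). In pre-TRAP it called 0 with library totals, against 2 (left-out libraries 0 to 3), and genes called ran from 1995 to 4925 over left-out libraries. In the method by experiment test the RNAs called were 1 with no filter and 1 with DESeq2, against 0, and the genes called were 39 with no filter, 45 with DESeq2 and 2 with limma voom, against 9 (left-out libraries 3 to 13). Snhg11 was called lower in experiment 2 in TRAP with no filter, DESeq2, limma voom, without TRAP libraries 3, 4, 5 and 6 and without TRAP het library 3. Malat1 was called lower there with no filter, DESeq2 and without TRAP library 3, 12, 15 or 16, and in pre-TRAP without library 21. Gas5 lost its call in TRAP with library totals and without the 4 libraries. Both genotype interactions gave 1 gene with no filter, against 0. Counting error alone was 17.4% of the count in the median TRAP library for Neat1 and 33.3% for Rmst, so small changes of these RNAs were beyond reach. No paired analysis was possible because library numbers run serially and no label says which TRAP and pre-TRAP libraries, if any, came from 1 pool.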

Other observations

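Of the 23 genes that RefSeq classes as snoRNA and that could be tested, 13 fell in TRAP, 2 rose and 8 were not called by edgeR, with a median log2 change of -1.24. Many lie inside host genes, and reads of a snoRNA and of its host cannot be told apart here.

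Qk, an RNA-binding protein that regulates splicing, had 48.8 ± 6.29 CPM in TRAP and 107 ± 20.4 CPM in pre-TRAP libraries (SD, n = 16 and 8), a log2 change of -1.13 with an edgeR adjusted p of 2.56e-11. Ptbp2, a splicing regulator of developing neurons, had 60.1 ± 10.1 CPM in TRAP and 34.7 ± 2.04 CPM in pre-TRAP libraries, a log2 change of 0.79 with an edgeR adjusted p of 2.28e-08.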
